A study of Homo sapiens with 20 samples.

Results

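The CEBP genes CEBPA, CEBPB, CEBPD, CEBPE and CEBPG encode the C/EBP family of transcription factors, and the RUNX1 binding sites around these 5 genes were followed when PU.1 was lowered. Every RUNX1 peak that lay within 50 kb of the RefSeq span (assembly GRCh38) of one of the 5 genes was taken, which gave 17 of the 26642 peaks in the data. The CEBPA window held 7 peaks, the CEBPG window 5, the CEBPB and CEBPE windows 3 each and the CEBPD window 1. CEBPA and CEBPG are neighbours on chromosome 19, and 2 peaks lay in both of their windows and were counted once.

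C/EBP proteins carry a basic region that contacts DNA and a leucine zipper through which they pair with each other and with related factors. In the myeloid lineage, C/EBPα is required to form granulocyte and monocyte progenitors, C/EBPβ acts in monocytes, macrophages and emergency granulopoiesis, and C/EBPε drives the late steps of granulocyte maturation. RUNX1 and PU.1 bind together with C/EBP factors at many myeloid genes, and CEBPA itself is controlled in myeloid progenitors by a distal enhancer downstream of the gene to which RUNX1 binds.

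RUNX1 chromatin immunoprecipitation with sequencing (ChIP-seq) was carried out in THP-1 cells, an established line from a human acute monocytic leukemia. The control cells expressed a scramble shRNA and the knockdown cells an shRNA against PU.1, in both cases from a cassette switched on by doxycycline, so that both groups received the inducer. Each group had 6 RUNX1 libraries made in 2 experimental rounds, which the labels call batches: 3 control and 2 knockdown libraries in batch 1, and 3 control and 4 knockdown libraries in batch 2. The question is whether, and where around these genes, RUNX1 is redistributed once PU.1 is reduced. All libraries came from this 1 cell line with separate immunoprecipitations, so the spread between them is that of repeated experiments on the line, and neither PU.1 nor the expression of the CEBP genes is measured by this assay. Fewer cells with RUNX1 bound at a site and weaker binding in each cell cannot be told apart in such bulk libraries.

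Values are normalised read counts, that is, reads over a peak divided by the size factor of the library, and peaks were compared with each other only per kb of peak. Control libraries held between 630247 and 1199004 reads within peaks and knockdown libraries between 938745 and 1719840. Control replicate 1 stood apart from the others. Its signal at peaks covering gene starts exceeded that at other peaks by 1.16 (difference of log2 counts), while this difference was 0.69 to 0.82 in control replicates 2 to 6 and 0.36 to 0.71 in knockdown libraries. Values in which this library was the highest control and far from the others are therefore also given without it.

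RUNX1 peaks around the CEBP genes lay mostly away from their start sites. Of the 17 peaks, 1 covered the start of a protein-coding gene, that of CEBPG, against 15.9% of all peaks, and no peak overlapped the span of CEBPA, CEBPB, CEBPD or CEBPE. Starts were counted for the 15842 protein-coding genes with a given strand, which leaves out CEBPD and makes these shares minimum values. Whether the family differs from all peaks in this was not tested. The bases that stand before the CEBPG start, inside this peak, and those before the CEBPA start, which no peak reached, are shown from RefSeq (GRCh38.p14), 5′ to 3′ along each gene. They let the covered and the uncovered promoter of the neighbours be read side by side.

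CEBPG promoter, chr19:33373459-33373708, plus strand: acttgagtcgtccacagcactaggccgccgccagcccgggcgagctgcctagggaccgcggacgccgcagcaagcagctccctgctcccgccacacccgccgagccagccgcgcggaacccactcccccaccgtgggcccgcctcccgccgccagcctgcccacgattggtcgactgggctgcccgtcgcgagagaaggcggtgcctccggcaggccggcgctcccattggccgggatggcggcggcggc
CEBPA promoter, chr19:33302535-33302784, minus strand: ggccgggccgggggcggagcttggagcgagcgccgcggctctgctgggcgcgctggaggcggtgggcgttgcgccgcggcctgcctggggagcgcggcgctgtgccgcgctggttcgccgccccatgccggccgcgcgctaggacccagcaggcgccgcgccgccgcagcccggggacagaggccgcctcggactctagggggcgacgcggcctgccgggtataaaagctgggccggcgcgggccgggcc

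The letters TGTGGT and TGCGGT of RUNX factors, TTGCNNAA of C/EBP factors and GAGGAAGT of PU.1 were searched on both strands of the 250 bases before the start, and a match would be set in capitals. None of these motifs contains another. No match stood in either sequence, nor in the promoters of CEBPB and CEBPE. Over all 35116 promoters of the table, TGTGGT was present in 10.98%, TGCGGT in 5.84%, TTGCNNAA in 9.05% and GAGGAAGT in 2.17%. CEBPD had no entry in the promoter table. The sequences under the other peaks were not used here.

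Knockdown of PU.1 moved RUNX1 binding at single peaks in both directions within the family. Gained and lost peaks were those with a DESeq2 adjusted p under 0.05 and a fold change over 1.1, batch being a covariate. By this measure 8 of the 17 peaks changed (47.1%), 5 gained and 3 lost, whereas 42.0% of all 26642 peaks were called, 21.3% gained and 20.7% lost. The share in the family was thus close to that of the genome. The split of 5 gained to 3 lost became 6 to 2 when size factors came from TMM (21.7% and 20.3% of all peaks) or from total in-peak reads (22.0% and 19.9%), and 6 to 1 when each change was taken relative to the median of the 10 Mb around the peak (21.6% and 19.2%). Over the 17 peaks the median log2 fold change was -0.04, against -0.02 over all peaks.

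**Figure D1:**
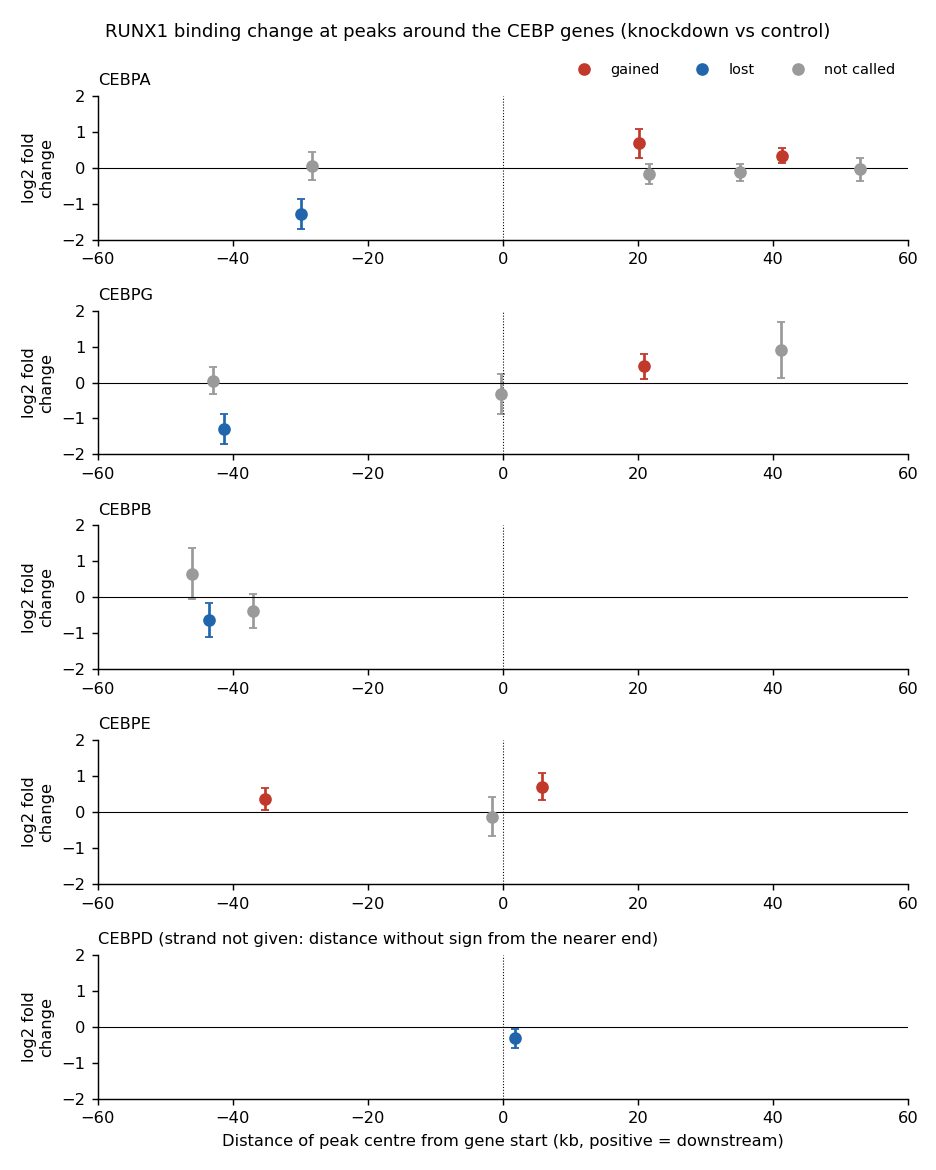
RUNX1 binding change at the peaks in each CEBP window; the x axis is the distance of the peak centre from the gene start in kb, positive downstream, and the y axis the log2 fold change of knockdown over control with its 95% interval. Red points were gained, blue points lost and grey points not called; the CEBPA window holds calls of both directions, with the strongest loss at 29.9 kb upstream (-1.29), and the peaks shared by CEBPA and CEBPG are drawn in both panels.

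C/EBPα is the member that drives granulocytic commitment, and its gene had the most RUNX1 peaks. No other protein-coding gene lies in the CEBPA window, and none of the 7 peaks overlapped a gene. SLC7A10, outside the window, was nonetheless nearer than CEBPA to the peaks chr19:33260138-33262219 and chr19:33248866-33250389. It lay 34288 and 23016 bp from them, against 37715 and 49545 bp for the CEBPA span. A peak on the upstream side was lost, 2 peaks on the downstream side were gained, and 4 were not called. The gene itself spans chr19:33299934-33302534 on the minus strand.

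The lost peak, chr19:33331785-33333002, lies between CEBPA and CEBPG, 29.9 kb upstream of the CEBPA start and 41.3 kb upstream of the CEBPG start. In control libraries its normalised count was 35.8 at the lowest, 41.0 in the median and 55.5 at the highest, with a mean of 42.9 ± 7.28 (SD, n = 6). In knockdown libraries it was 13.0, 16.8 and 24.9, with a mean of 17.4 ± 4.28 (SD, n = 6). Every knockdown library lay below every control library, in each batch as well. Binding was 2.44-fold lower after knockdown (log2 -1.29 ± 0.22, SE, DESeq2 adjusted p = 3.63e-08), a call kept in each of 20 alternative fits. Batch 1 alone gave -1.45 (adjusted p = 0.00807) and batch 2 alone gave -1.18 (adjusted p = 0.00131). No other peak of the family was free of overlap between the groups in both batches (1 of 17), whereas 28.3% of all peaks were, 13.9% below and 14.4% above. In controls this site stood at 35.2 ± 5.98 reads per kb, in the middle of the family, and in knockdown cells at 14.3 ± 3.52 reads per kb it was the weakest of the 17.

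Immediately beside it, 599 bp away, the peak chr19:33330310-33331185 did not pass the test. Its normalised count ran from 23.4 over a median of 31.4 to 34.4 in control libraries and from 25.6 over 33.4 to 36.3 in knockdown libraries, so that the groups overlapped over most of their range. The log2 fold change was 0.05, with a 95% interval of -0.33 to 0.44. The lost site and its neighbour therefore moved apart within the same libraries. The log2 ratio of the lost peak to its neighbour was 0.48 ± 0.35 in control libraries and -0.91 ± 0.30 in knockdown libraries (SD, n = 6 each), a difference of -1.38 when taken within batches, which differs from that of the means because the groups are unequal over the batches (two-sided exact permutation test that exchanged libraries within batch, p = 0.002857, which is the lowest value 350 arrangements allow).

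Downstream of CEBPA, on the side of its distal enhancer, the strongest RUNX1 site of the family was gained. This peak, chr19:33260138-33262219, has its centre 41.4 kb downstream of the start and stood at 69.8 ± 8.10 reads per kb in controls and 84.7 ± 16.3 in knockdown cells, and over all libraries it was at the 94.7 percentile of all peaks per kb. Its normalised count was 122 at the lowest, 151 in the median and 165 at the highest in control libraries (mean 145 ± 16.9) and 143, 166 and 237 in knockdown libraries (mean 176 ± 33.9). The groups overlapped, and the 2 highest values were the knockdown libraries of batch 1. Binding rose by 0.34 ± 0.10 on the log2 scale (SE, DESeq2 adjusted p = 0.00433), with 0.50 in batch 1 and 0.21 in batch 2 (adjusted p = 0.0813 and 0.293). Without knockdown replicate 1, the highest library, it was 0.26 (adjusted p = 0.0565) and no longer called.

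The second gain, at chr19:33281837-33282819, was the RUNX1 peak nearest to the CEBPA start, 20.2 kb downstream. Control libraries held 20.5 at the lowest, 31.4 in the median and 39.2 at the highest (mean 30.2 ± 7.51) and knockdown libraries 30.8, 47.8 and 61.2 (mean 47.1 ± 11). Of the knockdown libraries, 5 of 6 exceeded the highest control library. The log2 fold change of 0.68 ± 0.21 (SE, DESeq2 adjusted p = 0.00385) was of like size in batch 1 (0.78, adjusted p = 0.178) and batch 2 (0.61, adjusted p = 0.104), and the call was kept in each of 20 alternative fits.

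A peak 329 bp farther from the gene, chr19:33280347-33281507, was not called. It held 61.4, 68.6 and 72.8 reads as lowest, median and highest in control libraries and 52.8, 59.9 and 70.1 in knockdown libraries, and changed by -0.18 on the log2 scale (95% interval -0.45 to 0.09). The log2 ratio of the gained peak to this neighbour was -1.18 ± 0.35 in control and -0.39 ± 0.36 in knockdown libraries, a difference of 0.83 within batches (exact permutation test within batch, p = 0.005714). In both pairs of neighbours at CEBPA, 1 peak thus changed relative to another less than 1 peak width away. The pairs were chosen after the values were seen, and each holds a peak already called in these libraries. Their permutation p values are therefore not independent of those calls.

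The remaining downstream peaks of CEBPA were not called. The peak 35.1 kb downstream, chr19:33266557-33268359, held 103 ± 6.28 in control and 93.1 ± 12 in knockdown libraries (log2 -0.13, 95% interval -0.37 to 0.11). The farthest, chr19:33248866-33250389, whose centre is 52.9 kb downstream, held 54.4 ± 6.66 and 51.6 ± 9.80 (log2 -0.04, 95% interval -0.36 to 0.27). The summed normalised count of the 7 peaks was 473 ± 28.5 in control and 478 ± 35.8 in knockdown libraries (SD, n = 6 each), a sum to which the strongest peaks contribute most.

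**Figure D2:**
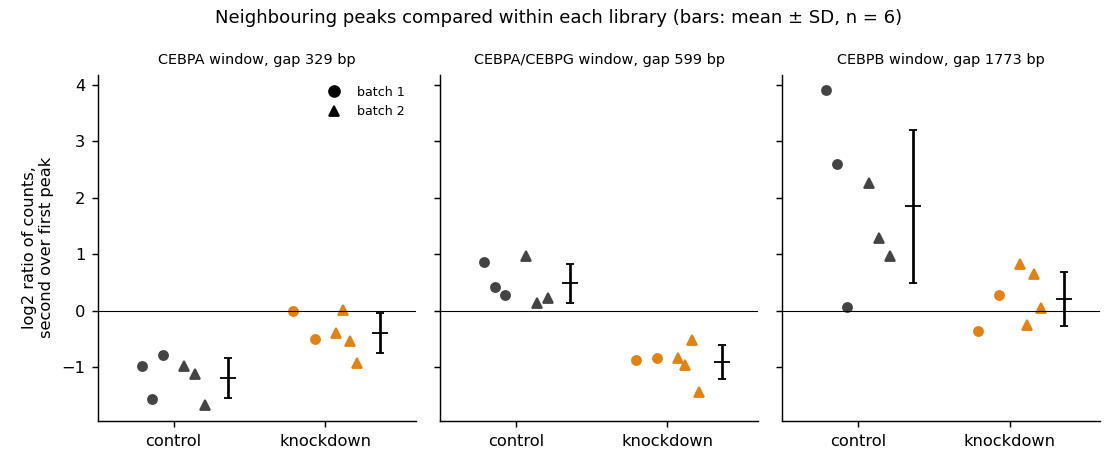
Neighbouring RUNX1 peaks less than 2 kb apart, compared within each library; the y axis is the log2 ratio of the count over the second peak to that over the first, in order of position, for control (grey) and knockdown (orange) libraries, with circles for batch 1, triangles for batch 2 and bars for mean and SD. The ratio between the CEBPA and CEBPG windows falls from 0.48 to -0.91 and that at CEBPA rises from -1.18 to -0.39, with no overlap between the groups in the former.

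CEBPE is the granulocyte-restricted member that drives secondary granule genes. Of its 3 RUNX1 peaks, 2 were gained and none was lost. The summed normalised count ran from 88.5 to 129 in control libraries (mean 112 ± 16.7) and from 135 to 166 in knockdown libraries (mean 150 ± 11.8), and the groups did not overlap. The strongest peak, which lies within SLC7A8, carried most of this sum, from 66.6 to 87.6 in the mean. The gene spans chr14:23117306-23119255 on the minus strand, and its window also holds ACIN1, C14orf119, CIROP and SLC7A8.

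The stronger change was at chr14:23112584-23114337, 5.8 kb downstream of the CEBPE start and outside any gene. Control libraries held 22.3 at the lowest, 27.2 in the median and 38.7 at the highest (mean 28.7 ± 6.86) and knockdown libraries 36.8, 46.4 and 52.7 (mean 45.8 ± 5.30). A single control library of batch 2 exceeded the lowest knockdown library, and in batch 1 the groups did not overlap. Knockdown raised the site by 0.71 ± 0.19 on the log2 scale (SE, DESeq2 adjusted p = 0.00110), by 0.97 in batch 1 (adjusted p = 0.0653) and by 0.50 in batch 2 (adjusted p = 0.169), and the call was kept in each of 20 alternative fits. Per kb the site was weak, with 16.4 ± 3.91 reads in controls, where it ranked 16 of 17.

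The other gain at CEBPE lies within SLC7A8, a gene for an amino acid transporter, 35.3 kb upstream of the CEBPE start at chr14:23153724-23155398. It was the strongest of the 3 peaks, with 42.9, 76.7 and 80.0 as lowest, median and highest in control libraries (mean 66.6 ± 17.6) and 76.4, 80.8 and 108 in knockdown libraries (mean 87.6 ± 14.1). The control values fell into a low pair, replicates 1 and 4, and 4 libraries between 76.2 and 80.0. The log2 fold change of 0.37 ± 0.16 (SE, DESeq2 adjusted p = 0.0451) was 0.50 in batch 1 and 0.28 in batch 2 (adjusted p = 0.294 and 0.329). The call was lost without control replicate 1 (0.27, adjusted p = 0.131), control replicate 4 (0.28, 0.161) or knockdown replicates 1 (0.28, 0.194), 3 (0.32, 0.0936) or 4 (0.39, 0.0548).

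The peak nearest the CEBPE start, chr14:23120703-23121138 at 1.7 kb upstream, was not called. Its normalised count was 16.6 ± 3.05 in control and 16.3 ± 5.38 in knockdown libraries (log2 -0.12, 95% interval -0.67 to 0.42). The batches pointed in opposite directions here, -0.73 in batch 1 and 0.32 in batch 2, and the difference between them did not pass DESeq2's interaction test.

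CEBPB encodes C/EBPβ, the member that acts in monocytes and macrophages, and its RUNX1 peaks were all far upstream. The gene spans chr20:50190583-50192690 on the plus strand, and its 3 peaks lie 37.1 to 46.0 kb before the start, within PEDS1, which encodes an enzyme of plasmalogen synthesis. Of these, 1 was lost and 2 were not called. The summed normalised count was 81.8 ± 20.2 in control and 67.0 ± 7.23 in knockdown libraries, and the groups overlapped. Without control replicate 1, the highest, the control mean was 75.3 ± 13.8.

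The lost peak, chr20:50146580-50147626, held 21.1 at the lowest, 29.6 in the median and 41.0 at the highest in control libraries (mean 30.5 ± 7.28) and 12.8, 22.7 and 26.1 in knockdown libraries (mean 20.3 ± 5.83). Both groups covered the range from 21.1 to 26.1. Binding changed by -0.62 ± 0.24 on the log2 scale (SE, DESeq2 adjusted p = 0.0242), with -0.67 in batch 1 and -0.59 in batch 2 (adjusted p = 0.376 and 0.191). It was no longer called without control replicate 4 (-0.59, adjusted p = 0.0566), control replicate 5 (-0.52, 0.112), knockdown replicate 1 (-0.51, 0.102) or knockdown replicate 4 (-0.51, 0.0825). Relative to the median of the 10 Mb around it, the change was -0.53 (adjusted p = 0.0613).

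The peak nearest to CEBPB, chr20:50152782-50154253, shows how a single library can set a mean. Control replicate 1 held 84.5 normalised reads, and the other 5 control libraries held 27.7 to 39.9. Knockdown libraries ran from 21.0 over a median of 31.0 to 34.4. With all libraries the log2 fold change was -0.39 ± 0.24 (SE, DESeq2 adjusted p = 0.188), and without control replicate 1 it was -0.11 (adjusted p = 0.730), neither of them called. The third peak, chr20:50144310-50144806, was thinly covered, with 1.30, 8.74 and 24.2 as lowest, median and highest in control libraries and 13.1, 16.5 and 23.3 in knockdown libraries. Its log2 fold change of 0.66 (95% interval -0.05 to 1.37, DESeq2 adjusted p = 0.132) became 1.11 (adjusted p = 0.00960) without control replicate 3, the control library with the highest value. The log2 ratio of the lost peak to this neighbour, 1773 bp away, was 1.85 ± 1.36 in control and 0.20 ± 0.48 in knockdown libraries, a difference of -1.61 within batches (exact permutation test within batch, p = 0.0371), with a p of 0.05 to 0.0733 when control replicate 4 or 5 or knockdown replicate 1, 4 or 6 was left out. Without control replicate 1, whose ratio was the highest, the difference was -1.25 (exact permutation test, p = 0.0286). Over the 3 pairs of neighbours less than 2 kb apart, the Benjamini-Hochberg adjusted p of the permutation tests was 0.00857, 0.00857 and 0.0371. All 3 pairs were chosen after the values were seen and hold a peak already called in these libraries. The adjustment does not correct for that choice.

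CEBPD, an inducible member known from inflammation and the acute phase response, had a single RUNX1 peak, chr8:47734207-47735976, which lies 0.9 kb from the gene span within SPIDR, a DNA repair gene. It was among the strongest sites of the family in controls, at 58.8 ± 11.3 reads per kb. Control libraries held 75.8 at the lowest, 103 in the median and 127 at the highest (mean 104 ± 19.97) and knockdown libraries 69.5, 82.6 and 93.8 (mean 83.6 ± 9.07). The groups overlapped from 75.8 to 93.8. The log2 fold change of -0.31 ± 0.13 (SE, DESeq2 adjusted p = 0.0477) was -0.30 in batch 1 and -0.31 in batch 2 (adjusted p = 0.502 and 0.234).

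This call sat at the threshold. The adjusted p was 0.0552 when libraries were scaled by TMM and 0.0618 when scaled by in-peak totals, and it rose above 0.05 when any one of control replicates 2 to 5 or knockdown replicates 1, 2, 4, 5 or 6 was left out (log2 -0.21 to -0.34, adjusted p 0.0599 to 0.249). Without control replicate 1 the peak was called at -0.36 (adjusted p = 0.0241). The 48 peaks within the 10 Mb around it had a median log2 fold change of -0.33, and relative to that median the change at CEBPD was 0.012 (adjusted p = 0.963). The part of this regional shift in the result was not tested.

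CEBPG encodes a small C/EBP protein without a transactivation domain of its own, which pairs with other family members and with ATF4. Its span is chr19:33373709-33382686 on the plus strand. Beside the pair of peaks shared with CEBPA, it had 1 peak at its start and 2 peaks downstream within PEPD, a gene for a peptidase that cleaves proline dipeptides. The peak at the start, chr19:33373067-33373892, which covers the promoter printed above, was not called. Control replicate 1 held 75.4 normalised reads there, the other control libraries 17.6 to 30.0, and the knockdown libraries 9.32 to 43.5 with a median of 22.1. Its log2 fold change was -0.32 ± 0.28 (SE, DESeq2 adjusted p = 0.370) with all libraries and -0.03 (adjusted p = 0.939) without control replicate 1.

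Farther along, 20.8 kb downstream of the CEBPG start, the peak chr19:33394073-33395033 was gained. Control libraries held 26.0, 32.9 and 40.9 as lowest, median and highest (mean 33.2 ± 6.74) and knockdown libraries 38.4, 46.3 and 60.6 (mean 48.2 ± 8.88), with an overlap from 38.4 to 40.9. The log2 fold change of 0.45 ± 0.18 (SE, DESeq2 adjusted p = 0.0375) was 0.36 in batch 1 and 0.53 in batch 2 (adjusted p = 0.622 and 0.111). The call was lost without any one of control replicates 1, 3, 4, 5 or 6 or knockdown replicates 2, 3, 5 or 6 (log2 0.39 to 0.48, adjusted p 0.0557 to 0.108), and without control replicate 1 the change was 0.41 (adjusted p = 0.0691). The last peak of the window, chr19:33414673-33415204, was weak and fell just outside the threshold, from 0.931 over 8.16 to 13.0 in control and from 9.13 over 13.5 to 18.4 in knockdown libraries (log2 0.91, 95% interval 0.14 to 1.69, DESeq2 adjusted p = 0.0504). Without control replicate 1 it was called (1.17, adjusted p = 0.0174), as it was by edgeR (0.93, adjusted p = 0.0192), without control replicate 5 (1.05, 0.0499) or 6 (1.12, 0.0368), and without knockdown replicate 1 (1.02, 0.0480) or 6 (0.99, 0.0423). Over the CEBPG window the summed count was 146 ± 17.5 in control and 135 ± 15.9 in knockdown libraries, and the control mean was 139.7 ± 5.75 without control replicate 1.

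**Figure D3:**
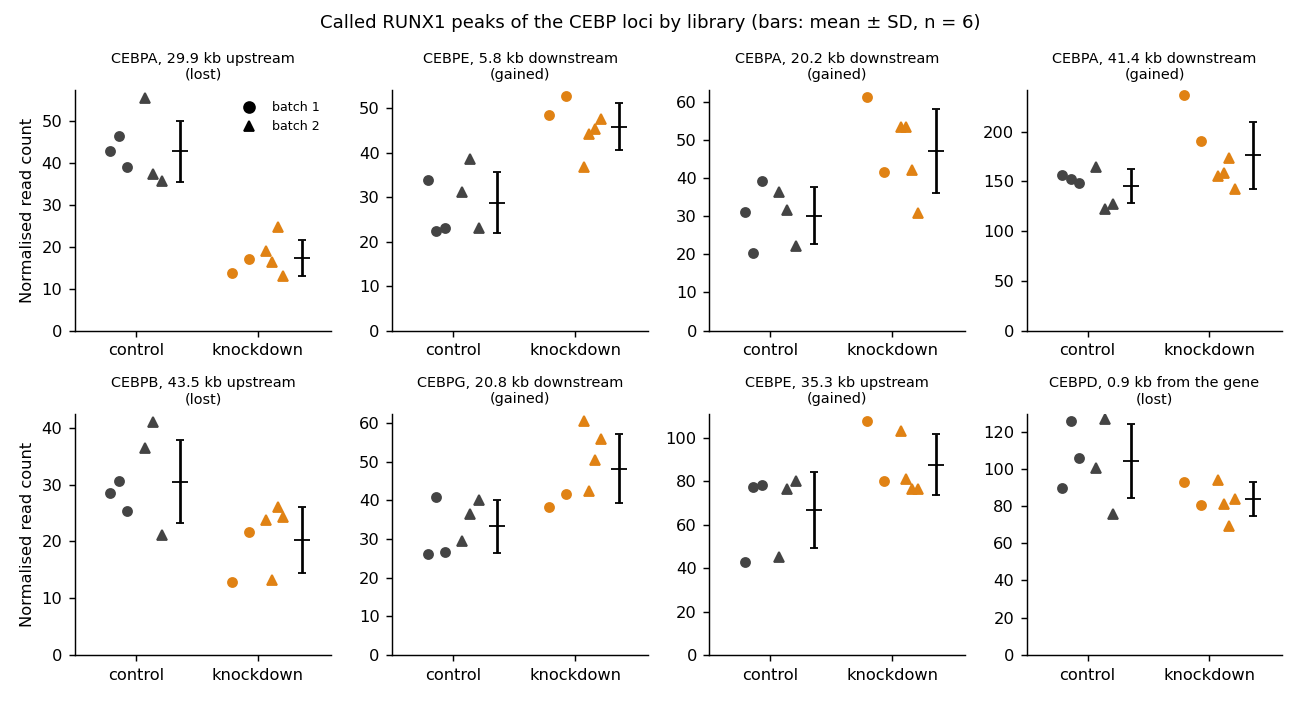
Normalised read count of each library at the 8 called peaks of the CEBP loci, in order of adjusted p; control libraries are grey and knockdown libraries orange, circles are batch 1 and triangles batch 2, and bars show mean and SD (n = 6). Titles give the distance of the peak centre from the gene start, or from the gene span for CEBPD; the groups are free of overlap at the CEBPA upstream peak (13.0 to 24.9 against 35.8 to 55.5) and share part of their range at the other 7.

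Ranked by reads per kb, most peaks could not be told from the next in rank by their spread. In control libraries the mean ran from 13.6 to 69.8 reads per kb, and of the 16 pairs of peaks next to each other in this order, 15 overlapped in their range over libraries. The exception was the step from the CEBPA peak 35.1 kb downstream to the CEBPE peak within SLC7A8. The peak at CEBPD, which ranked second at 42.8 to 71.5 reads per kb, still overlapped peaks of lower rank, among them the CEBPG start at 21.3 to 91.2. In knockdown libraries the mean ran from 14.3 to 84.7 reads per kb, 15 of 16 neighbours overlapped, and the gained CEBPA peak 41.4 kb downstream was free of overlap with the next in rank. The median peak of the family was 1161 bp wide with 35.9 reads per kb, against 889 bp and 33.1 reads per kb over all peaks.

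Within single batches few of these peaks passed the test. Batch 1 called 1 of the 17 and batch 2 called 1, in both cases the lost peak between CEBPA and CEBPG, whereas DESeq2 called 12% of all peaks in batch 1 and 25.8% in batch 2. With edgeR's quasi-likelihood test, 4 peaks were called in batch 1 and 3 in batch 2, beside 27.3% and 36.2% of all peaks. The direction was the same in both batches at 15 of the 17 peaks, beside 80.0% of all peaks. It was also the same at 8 of the 8 called peaks. Those were called from both batches together, which favours a shared sign, so their agreement is no separate support for the calls. A test of the difference between batches called no peak (0 of 17 in the family and 0.0% of all peaks, DESeq2), and at an unadjusted p under 0.05 it found 0 of 17 in the family and 2.51% of all peaks. Over both batches, edgeR called again 8 of the 8 peaks and 1 more, with 47.1% of all peaks called. Without control replicate 1, 7 peaks were called, 4 gained and 3 lost, of which 6 were among the 8, and of all peaks 39.2% were called, 20.1% gained and 19.1% lost.

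**Figure D4:**
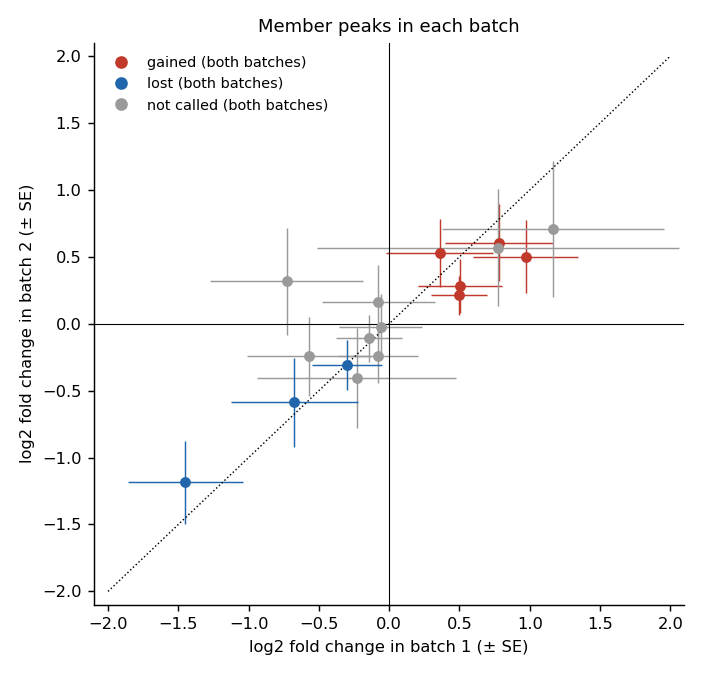
Log2 fold change of each of the 17 peaks in batch 1 (x axis) and batch 2 (y axis) with standard errors; colours give the call over both batches and the dotted line marks equal change. All 8 called peaks have the same sign in both batches, which calling over both batches favours, with the lost peak between CEBPA and CEBPG at -1.45 and -1.18.

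The lost peak between CEBPA and CEBPG was not the only site of its pattern. Among 6870 peaks outside the CEBP windows whose mean count reached 50, those most like it over the 12 libraries were a peak 15 kb from FURIN (Pearson r = 0.952), a peak on chromosome 6 far from any protein-coding gene (r = 0.952), a peak within CACNB4 (r = 0.948), another within UHRF2 (r = 0.948) and a peak 32.2 kb from DNAJC5B (r = 0.946). These correlations share the difference between the groups and are given as a description. The FURIN peak, chr15:90852581-90853582, held 135 ± 18.4 normalised reads in control and 53.2 ± 7.53 in knockdown libraries, a log2 fold change of -1.36. The correlation does not compare the size of the change. The log2 fold change was -1.35 at the chromosome 6 peak, and smaller losses stood at CACNB4 (-0.76), UHRF2 (-0.81) and DNAJC5B (-0.86).

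At the edges of the windows, the member peaks farthest from their genes were 49.5 kb from the CEBPA span and 45.8 kb from the CEBPB span. The next peaks outside were 72.1 kb from CEBPA, with 9.25 ± 2.63 normalised reads in control and 15.3 ± 2.67 in knockdown libraries, and 79.3 kb from CEBPB, with 19.7 ± 5.36 and 4.56 ± 1.62.

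RUNX1 binding was also read out around 29 other genes listed for the C/EBP pathway, 7 as partners or inhibitors and 22 as targets in myeloid cells. The group of 7 includes CEBPZ, which bears the family name but is not known as a dimer partner or inhibitor. Peaks were present within 50 kb of 27 of them, and 35 of the 94 peaks were called (37.2%), 13 gained and 22 lost. Of all peaks, 42.0% were called, 21.3% gained and 20.7% lost. Of the 16 genes with a call, 10 had only lost peaks, 2 only gained peaks and 4 both. S100A8 and S100A9 are counted separately among the 10, although their calls rest on the same peak. The median log2 fold change of the 94 peaks was -0.11.

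The group of partners and inhibitors, with the 2 peaks of CEBPZ included, carried 25 of these peaks. Of these, 3 were gained and 5 lost (32.0% called, beside 42.0% of all peaks). TRIB1, a pseudokinase that directs C/EBPα to degradation, had the lowest adjusted p of the list, at a peak that fell from 83.2 ± 7.35 to 30.0 ± 3.01 normalised reads (log2 -1.51 ± 0.16, SE, DESeq2 adjusted p = 6.1e-20). A further TRIB1 peak was gained, and at TRIB3, a related pseudokinase, 4 peaks were lost. At ATF4, which pairs with C/EBPγ in the stress response, 2 of 6 peaks were gained. DDIT3, CEBPZ and TRIB2 had peaks but no call.

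Targets carried the other 69 peaks, of which 10 were gained and 17 lost (39.1% called, beside 42.0% of all peaks). A peak shared by S100A8 and S100A9, which encode the calprotectin subunits of neutrophils and monocytes, fell from 35.0 ± 6.29 to 8.40 ± 2.28 (log2 -2.04 ± 0.27, SE, DESeq2 adjusted p = 1.1e-12). At LTF, the gene of the secondary granule protein lactoferrin, 3 of 5 peaks were gained, the foremost rising from 17.9 ± 6.61 to 54.0 ± 12.4 (log2 1.54 ± 0.22, SE, adjusted p = 5.9e-11). The IL-6 receptor gene IL6R had 16 peaks, of which 4 were gained and 4 lost, or 5 and 3 when scaled by TMM or by in-peak totals and 6 and 1 relative to the surrounding 10 Mb. Its strongest call rose from 88.1 ± 19.2 to 189 ± 24.6 (log2 1.07 ± 0.13, SE, adjusted p = 4.0e-15). CSF1R, the macrophage colony-stimulating factor receptor, had a lost peak and a gained peak 46.1 kb upstream of its span. The gained peak rose from 8.87 ± 2.05 to 33.4 ± 7.67 (log2 1.93 ± 0.29, SE, adjusted p = 9.0e-10). Pathway peaks were assigned by distance to the listed genes alone, and other genes near them were not considered. MPO, CSF2RA and CD14 had 2 lost peaks each and CSF3R, LYZ, MMP8 and IL1B 1 each, with no gain. CTSG had 2 gained and 1 lost, and no peak was called at ELANE, PRTN3, AZU1, CAMP, LCN2, GFI1, KLF5 or IL6. Relative to the surrounding 10 Mb, the 94 peaks gave 15 gained and 17 lost (21.6% and 19.2% of all peaks). The call at CSF3R, 1 at MPO and 1 at ATF4 were no longer made. A single peak shared by ELANE, PRTN3 and AZU1, counted once, was then gained (log2 0.20, locally centred DESeq2 adjusted p = 0.0437).

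**Figure D5:**
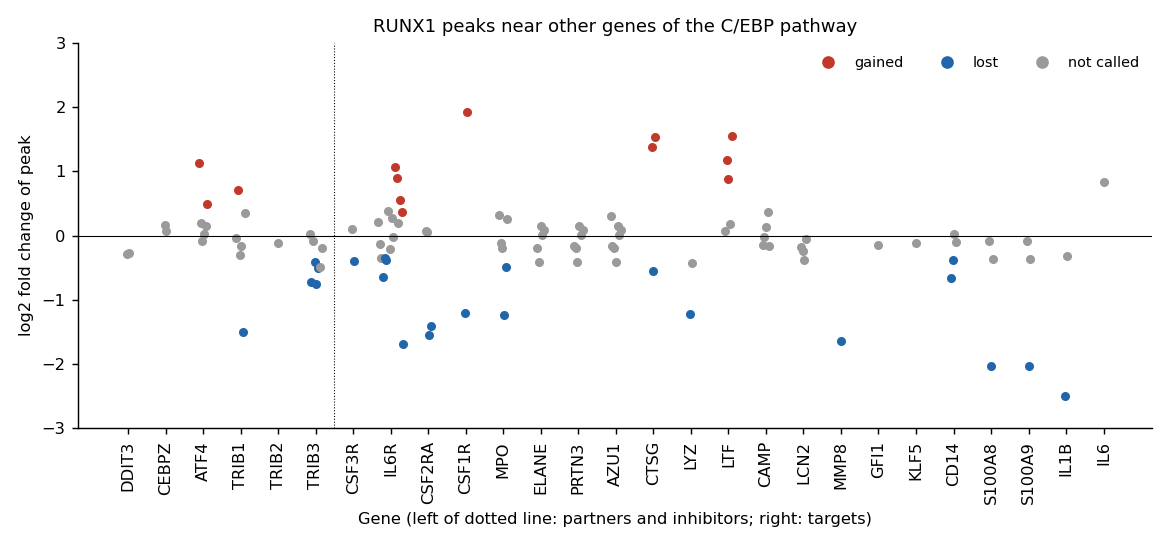
Log2 fold change of every RUNX1 peak within 50 kb of the other genes of the C/EBP pathway, by gene; red points were gained, blue points lost and grey points not called, and a peak near several genes is drawn at each. Losses reach below -2 in the windows of S100A8, S100A9 and IL1B, and the largest gain is 46.1 kb from CSF1R (1.93).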

How the data were processed

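The deposited table, made by the authors with featureCounts from bowtie2 alignments, holds raw read counts over 1 peak set for all libraries (macs2, filtered by the irreproducible discovery rate), and the peak width in bp as other information. The study's methods name a mouse build for these human cells, and the coordinates were taken as GRCh38, since 24.4% of peaks lay within 1 kb of a protein-coding gene end, against 5.48% to 7.58% after shifting them. The gene table gives no exons, so exons and introns are not named. Peaks were called on the libraries compared. The 8 IgG samples were not analysed here.

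All 26642 peaks were fitted with DESeq2 1.42.0 (R 4.3.3), batch as covariate, Benjamini-Hochberg over all peaks. The alternatives were edgeR 4.0.16, other size factors, filters, thresholds and windows, and leaving out each library. Neighbouring peaks were compared by an exact permutation test within batch after adding 0.5 to each count. The members, the pathway list and the tests were chosen with earlier results of these data known. Named were, per gene, the peak nearest the start, the peak with the highest mean and every call, plus the 5 most similar peaks outside and the 5 pathway calls of lowest adjusted p, at most 1 per gene. The remaining members, the neighbour pairs and the other pathway genes were added after their values were seen.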

Additional observations from a re-analysis of the deposited data

Results flagged for a closer look

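In 44 groups of 6 libraries (the 17 peaks and 5 window sums in each group), 4 held a library far from the other 5. For independent groups chance gives about 1 in 20, or 2.2. These groups are not independent, since each window sum contains its own peaks, so the count of flags cannot be judged against that value. Of these, 3 were control replicate 1. It held 75.4 normalised reads at the CEBPG start, chr19:33373067-33373892, against 17.6 to 30.0 in the other control libraries, and 84.5 at the CEBPB peak chr20:50152782-50154253, against 27.7 to 39.9. The sum over the CEBPG window, which includes the start peak, was 180.6 in the same library, against 134 to 146. The CEBPG start lies under the first of these peaks, and this library had the highest signal at peaks covering starts relative to other peaks (1.16 on the log2 scale). At the CEBPA peak farthest downstream, chr19:33248866-33250389, knockdown replicate 3 held 32.1, against 52.9 to 58.7 in the other knockdown libraries.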

How the results depend on the processing

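The count of called CEBP peaks, 8 of 17, was 4 (3 gained, 1 lost) at an adjusted p under 0.01 (31.6% of all peaks), 1 (lost) at a fold change over 2 (17.1% of all peaks) and 2 (1 gained, 1 lost) of the 4 peaks in a window of 10 kb, and it ranged from 4 to 8 without single libraries (4 without control replicate 4, 5 without knockdown replicate 1 or 4). It was 6 (5 gained, 1 lost) with at least 10 counts in every library, where 14 of the 17 remained and 32.2% of all peaks were called, and 7 to 9 under the other settings. Within batch 1 it was 1, 4 with edgeR, and 0 to 1 without single libraries (0 without control replicate 2 or 3 or knockdown replicate 1 or 2); within batch 2 it was 1, 3 with edgeR, and 1 in each leave-one-out fit. Of the 94 pathway peaks, 35 were called, 19 of the 72 with at least 10 counts in every library, 23 of the 56 in a window of 10 kb, and 29 to 34 of 94 without single libraries.

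Replicate numbers do not pair these libraries: number 3 stands in both batches, the correlation of deviations ran from -0.0596 to 0.176, and 1 of 6 numbers correlated best with its own partner. With the replicate block, 4 CEBP peaks were called (3 gained, 1 lost), 3 of them among the 8, beside 27.4% of all peaks, and 21 pathway peaks.

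Under these settings the sign turned at few CEBP peaks, each time to a value near 0. At CEBPA chr19:33248866-33250389 it turned under the replicate block (0.074), with at least 10 counts (0.025) and relative to the surrounding 10 Mb (0.012). Without single libraries this peak ran from -0.084 to 0.029, and CEBPE chr14:23120703-23121138 from -0.23 to 0.0095. CEBPD, a called loss at -0.31, stood at 0.012 relative to the surrounding 10 Mb. Between batch 1 and batch 2 alone, the sign differed at that CEBPE peak (-0.73 and 0.32) and at chr19:33330310-33331185 (-0.08 and 0.16). Causes were not tested. Median counts of 37.3 normalised reads per peak limit the precision of single peaks; library totals outside peaks were not used here.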
